A study of Mus musculus with 4 samples.

Results

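The 7 genes of the aryl hydrocarbon receptor (AhR) pathway, Ahr, Arnt, Ahrr, Tiparp, Cyp1a1, Cyp1b1 and Nqo1, were followed by symbol through single-cell transcriptomes of colonic lamina propria leukocytes from mice with colitis. They were 7 of 32285 genes counted. The cells were CD45+ cells, selected with magnetic beads from the colon of mice of 10 weeks of age per the labels, all given dextran sulfate sodium (DSS), a polymer that injures the colonic epithelium when it is drunk. The study set AhR-null mice beside co-housed AhR+/+ littermates, and each of the 4 samples pooled the cells of several mice. The labels number the samples 1 to 4 but give none of them a genotype. No sample was thus assigned to a group here, and no comparison between genotypes was made. Ratios between classes or types, and the highest class or type, were taken within a sample. Medians, orders by median, correlations over types and statements on overlap used the values of all 4 samples, whatever their genotype. The 4 files shared 23 to 49 cell barcodes per pair of samples, 0.104% to 0.194% of the barcodes of the pair.

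AhR is a ligand-activated transcription factor of the bHLH-PAS family. In the resting cell it is held in the cytoplasm by HSP90 and other chaperones. On binding a ligand, such as an indole from diet or microbes or a tryptophan metabolite, it enters the nucleus, pairs with ARNT and binds DNA at xenobiotic response elements. Among the genes it induces are the cytochrome P450 genes Cyp1a1 and Cyp1b1, whose products also break down AhR ligands, Nqo1, which encodes a quinone reductase that NRF2 induces as well, and 2 genes whose products limit the pathway, the AhR repressor Ahrr and the ADP-ribosyltransferase Tiparp. In the gut the receptor is best known for its part in group 3 innate lymphoid cells (ILCs), intraepithelial T cells and regulatory T cells.

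The RefSeq promoter sequences of the members are shown because AhR and ARNT act through an element that can be looked for there. Each is 300 bases of GRCm38.p6, from 250 bases before to 50 bases after an annotated start site, printed 5′ to 3′ on the gene's own strand. Capitals mark the element's core, GCGTG, or its reverse complement CACGC. A promoter was found for 6 of the 7 members. Ahr had no entry.
Ahrr, chr13:74292282-74292581, minus strand: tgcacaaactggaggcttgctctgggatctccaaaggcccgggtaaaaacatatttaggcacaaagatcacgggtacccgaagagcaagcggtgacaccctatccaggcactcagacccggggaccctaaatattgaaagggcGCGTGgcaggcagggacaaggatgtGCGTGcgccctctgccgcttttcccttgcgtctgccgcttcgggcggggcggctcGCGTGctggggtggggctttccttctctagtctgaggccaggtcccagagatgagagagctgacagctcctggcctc
Tiparp, chr3:65528197-65528496, plus strand: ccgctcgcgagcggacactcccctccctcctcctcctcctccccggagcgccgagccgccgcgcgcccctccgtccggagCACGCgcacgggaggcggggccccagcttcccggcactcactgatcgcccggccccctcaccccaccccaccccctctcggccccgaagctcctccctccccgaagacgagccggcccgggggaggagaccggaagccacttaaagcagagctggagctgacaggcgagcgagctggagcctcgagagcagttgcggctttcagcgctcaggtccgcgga
Cyp1a1, chr9:57697363-57697662, plus strand: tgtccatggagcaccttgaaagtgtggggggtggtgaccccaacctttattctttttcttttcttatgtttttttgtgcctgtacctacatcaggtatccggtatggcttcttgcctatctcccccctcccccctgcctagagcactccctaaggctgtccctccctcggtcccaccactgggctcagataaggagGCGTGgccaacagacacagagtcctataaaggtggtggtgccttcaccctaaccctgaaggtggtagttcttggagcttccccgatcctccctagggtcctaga
Cyp1b1, chr17:79715012-79715311, minus strand: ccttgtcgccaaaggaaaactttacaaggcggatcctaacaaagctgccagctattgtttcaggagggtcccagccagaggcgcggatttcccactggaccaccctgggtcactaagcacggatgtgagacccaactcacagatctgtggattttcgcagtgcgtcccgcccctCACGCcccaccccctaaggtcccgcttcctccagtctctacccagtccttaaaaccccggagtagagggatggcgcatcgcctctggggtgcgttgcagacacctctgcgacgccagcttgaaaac
Nqo1, chr8:107403156-107403455, minus strand: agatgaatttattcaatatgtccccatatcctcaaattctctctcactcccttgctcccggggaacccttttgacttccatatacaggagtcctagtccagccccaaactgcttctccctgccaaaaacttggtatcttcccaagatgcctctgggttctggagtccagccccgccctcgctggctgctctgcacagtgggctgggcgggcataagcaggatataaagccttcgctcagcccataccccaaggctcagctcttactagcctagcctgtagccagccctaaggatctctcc
The core stood 3 times in the Ahrr window, once each in the Tiparp, Cyp1a1 and Cyp1b1 windows and once in that of Arnt (chr3:95434140-95434439), and it was not in the Nqo1 window. Of 32851 promoter windows of this length in the table, 32.4% held the core at least once and 3.91% held it 3 times or more. A match is a match of letters, not a binding site, and the window leaves out distal elements.

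In GENCODE M21 on GRCm38, Ahr lies on chromosome 12 from 35497974 to 35535038 and Arnt on chromosome 3 from 95434388 to 95497240. Ahrr lies on chromosome 13 from 74211118 to 74292331, Tiparp on chromosome 3 from 65528410 to 65555518, Cyp1a1 on chromosome 9 from 57687928 to 57703824, Cyp1b1 on chromosome 17 from 79701537 to 79715061 and Nqo1 on chromosome 8 from 107388225 to 107403206. All are protein coding. Ahr overlaps the lincRNA Gm48236 on the other strand, Tiparp overlaps 4931440P22Rik on the other strand, and Arnt overlaps Gm42672 on its own strand.

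Each level is given as CPM: the unique molecular identifiers (UMIs, which count captured RNA molecules) of a gene summed over the cells of a class in a sample, per 1000000 UMIs of those cells. The 4 samples held 11425, 13730, 11581 and 8493 cells with 113806334, 135516016, 101579112 and 72509408 UMIs. After filters on genes, mitochondrial UMIs and doublet scores 39550 cells were kept, with a median of 6186.5 UMIs. A gate on marker genes placed 29573 of them, 74.8%, in 5 classes: 12032 lymphoid, 1484 dendritic (DC), 154 mast, 14711 myeloid and 1192 stromal cells. The stromal class joins epithelial cells, fibroblasts, mural cells, endothelial cells and glia, which the CD45 selection should remove. Ptprc, the gene of CD45, stood at 38.1 to 107 CPM there, against 1494 to 2233 in lymphoid, 1038 to 1358 in DC, 625 to 1522 in mast and 1411 to 1875 in myeloid cells. The mast class held both the mast cell protease Mcpt1 (5075 to 27738 CPM) and the basophil protease Mcpt8 (194 to 2485 CPM). It had 34, 88, 14 and 18 cells in samples 1 to 4, so it passed 50 cells only in sample 2. A level over few cells rests on those cells, and the intervals given are exact 95% intervals that cover counting error only.

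**Figure D1:**
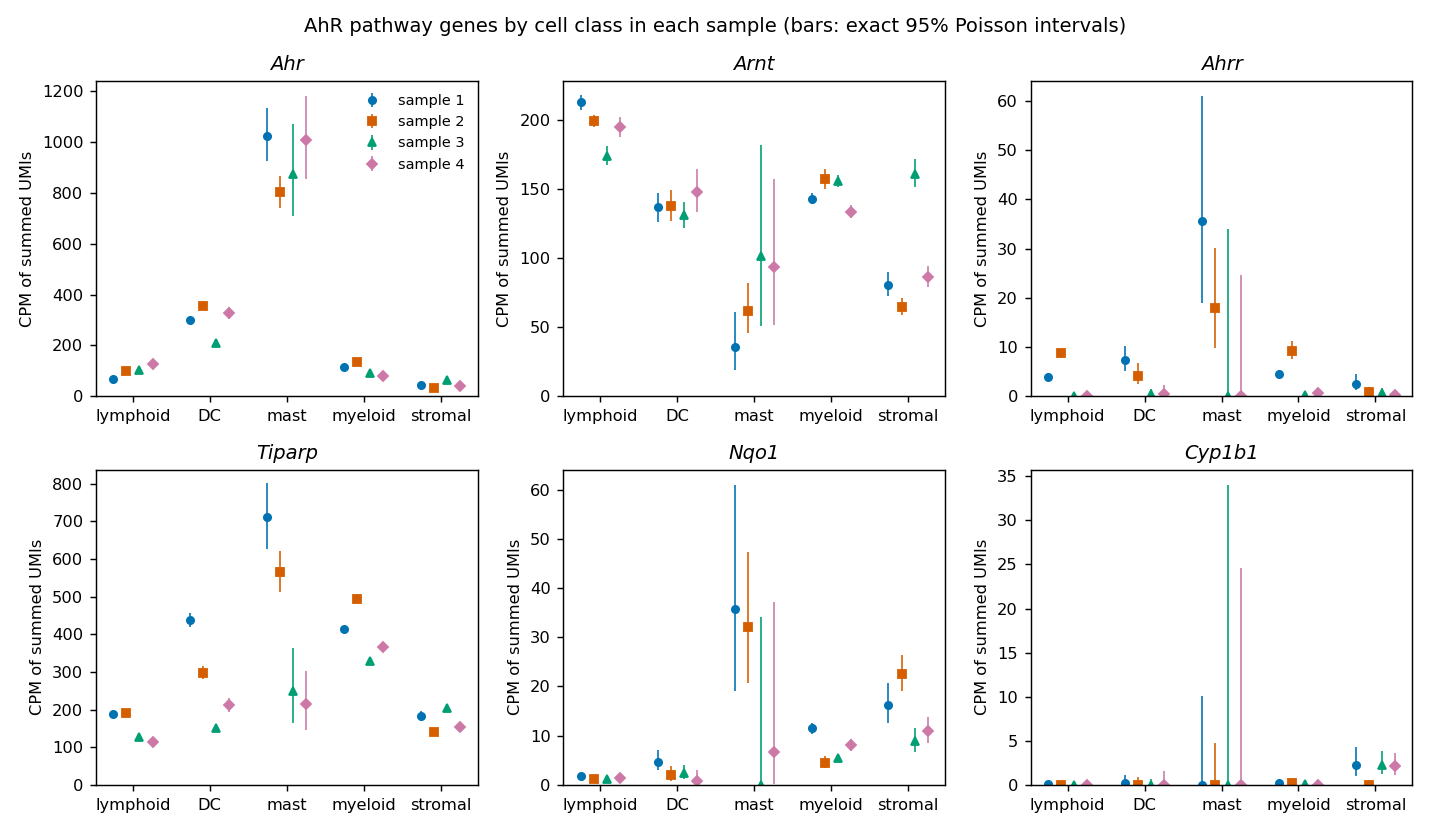
CPM of summed UMIs (vertical axes, linear, from 0) of 6 member genes in the 5 cell classes, one point per sample with its exact 95% Poisson interval. Ahr stood highest in the mast class and next in the DC class in all 4 samples, and the Ahrr points of samples 3 and 4 lie near 0 in every class, with wide intervals in the mast class. Cyp1a1, with 6 UMIs in gated cells, is left out.

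UMIs of the receptor gene itself were found in all 5 classes, and its level was highest in mast cells. In samples 1 to 4, Ahr stood at 1026, 802, 877 and 1009 CPM in the mast class and at 299, 356, 210 and 328 CPM in the DC class. It stood at 66.5, 100.3, 105 and 128 CPM in lymphoid cells, at 116, 135, 89.6 and 81.1 CPM in myeloid cells, and at 42.6, 34.1, 63.6 and 41.6 CPM in stromal cells. The mast values lay above those of every other class with no overlap, and the DC values lay above those of the lymphoid, myeloid and stromal classes with no overlap. The mast class was thus highest of 5 in 4 of 4 samples, as it was for 2.34% of the 15971 genes that reached a median of 1 CPM in some class. With the mast class left out, DC was highest in 4 of 4 samples, as it was for 5.77% of those genes. Within samples, the Ahr level in DC was 2.59 times that in myeloid cells in sample 1 (95% interval 2.44 to 2.75), 2.64 times in sample 2 (2.46 to 2.83), 2.35 times in sample 3 (2.20 to 2.51) and 4.05 times in sample 4 (3.72 to 4.40). With 4 samples the smallest two-sided p an exact sign-flip permutation test over samples could give is 0.125, above 0.05, and no class contrast is given a p.

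The order of the lymphoid and myeloid classes for Ahr was not the same in all samples. The lymphoid level was 0.576 (0.545 to 0.608) and 0.744 (0.703 to 0.788) times the myeloid level in samples 1 and 2, and 1.17 (1.10 to 1.25) and 1.58 (1.48 to 1.68) times in samples 3 and 4. The makeup of both classes moved with this. B cells, which held little Ahr, were 71.1%, 53.4%, 22.0% and 25.5% of lymphoid cells in samples 1 to 4, and neutrophils were 38.1%, 30.4%, 44.9% and 44.8% of myeloid cells. Within B cells alone Ahr stood at 56.4, 84.1, 71.95 and 53.6 CPM, with no such order of the samples. The part of class makeup in the class values was not tested.

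**Figure D2:**
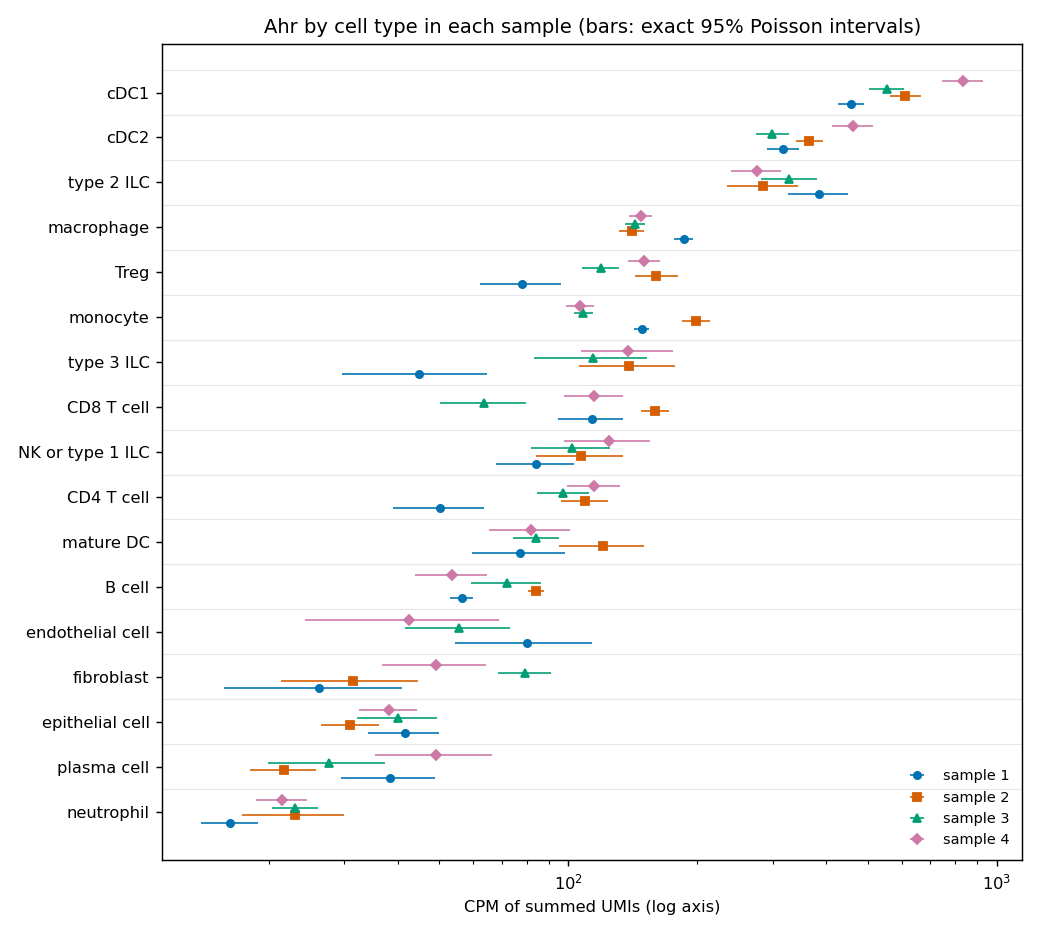
CPM of Ahr (horizontal axis, log scale) in the 17 ranked cell types, in order of their median over samples, one point per sample with at least 20 cells of the type and its exact 95% Poisson interval. The cDC1, cDC2 and type 2 ILC points lie to the right of those of all other ranked types.

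Among the cell types ranked, conventional dendritic cells and type 2 ILCs held the highest levels of Ahr. Types were ranked where 2 samples held at least 50 cells, and a sample was read where it held at least 20, which gave 17 types. Mast cells or basophils passed 50 cells in sample 2 only and were not ranked as a type. Ahr was highest in cDC1, the cross-presenting subset marked by Xcr1, in 4 of 4 samples, as were 0.845% of the 17638 genes that reached a median of 1 CPM in some type. It stood at 458, 612, 554 and 835 CPM there, with 101, 76, 60 and 31 cells. In cDC2 it stood at 317, 366, 300 and 461 CPM. The ranges of the subsets touched over samples, but within each sample cDC1 was 1.44 to 1.85 times cDC2, and each of the 4 intervals lay above 1. In mature DCs, the Ccr7-high form that carries antigen to lymph nodes, Ahr was 77.3, 120.5, 84.2 and 81.9 CPM. The cDC1 level was 5.93 (4.599 to 7.75), 5.08 (4.001 to 6.54), 6.58 (5.64 to 7.70) and 10.2 (8.01 to 13.1) times that of mature DCs. Mature DCs made up 19.5%, 16.3%, 54.3% and 39.7% of the DC class in samples 1 to 4, and the class level of Ahr was lowest in sample 3, which had the largest share. Plasmacytoid DCs, which passed 50 cells in 1 sample only and were not ranked, stood at 102, 153, 138 and 193 CPM.

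Among innate lymphoid cells the Ahr transcript level was highest in type 2 ILCs. These cells, marked by Il1rl1 and known for type 2 cytokines and amphiregulin, held Ahr at 385, 285, 328 and 275 CPM. Type 3 ILCs, the main source of IL-22 in the gut, held 44.7, 139, 114 and 138 CPM. The type 2 level was 8.61 (5.73 to 13.4), 2.06 (1.496 to 2.86), 2.87 (2.06 to 4.08) and 1.99 (1.51 to 2.66) times the type 3 level. Sample 1 stands out here through its low type 3 value, which rests on 69 cells and 28 UMIs of Ahr. NK cells or type 1 ILCs held 84.2, 107, 102 and 124 CPM.

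T cells lay lower and close together. In regulatory T cells (Treg), marked by Foxp3, Ahr stood at 77.9, 161, 119 and 150 CPM and in other CD4 T cells at 50.2, 109, 97.3 and 115 CPM. The Treg level was above the CD4 level in 4 of 4 samples, by 1.23 to 1.55 times. CD8 T cells stood at 113, 160, 63.7 and 115 CPM, above CD4 T cells in samples 1 and 2, below them in sample 3 and level with them in sample 4. T cells with type 17 genes, of which only 13 to 37 were found per sample, stood at 73.8, 153, 108 and 129 CPM. Gamma-delta T cells, of which sample 2 held 224 and the others 10 to 31, stood at 127, 191, 238 and 114 CPM.

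The remaining types did not all lie low in the order by median. Macrophages, at 141 to 186 CPM, came directly below type 2 ILCs. Monocytes, at 107 to 199 CPM, came between Tregs and type 3 ILCs. B cells, at 53.6 to 84.1 CPM, came directly below mature DCs. Endothelial cells, fibroblasts and epithelial cells followed, with medians of 55.7, 40.3 and 39.1 CPM. Plasma cells stood at 38.4, 21.7, 27.6 and 49.2 CPM, below B cells in 4 of 4 samples, and neutrophils closed the order at 16.3 to 23.1 CPM. Of the 16 pairs of neighbours in this order only the step from type 2 ILCs to macrophages separated the samples with no overlap, and the ranges of all other neighbours overlapped. Of those that overlapped, cDC1 above cDC2 and mature DCs above B cells kept their order within all 4 samples. In the DC class the highest sample was 1.69 times the lowest (1.57 to 1.82) for Ahr, a fold that 53.4% of the 12299 genes read there reached or passed. The files do not show where in the gene its UMIs lie, and the Ahr count was not read as a check of genotype.

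The share of cells with an Ahr UMI was compared at equal depth. Median UMIs per cell ran from 8373.5 to 12698.5 in DC over the samples and from 4949.5 to 7884 in myeloid cells, so each cell was thinned to 1000 UMIs, which left out 0% to 5.79% of the cells of a class in a sample. After this 21.1%, 25.9%, 12.3% and 21.5% of DC and 48.5%, 48.8%, 35.7% and 47.1% of mast cells held an Ahr UMI, against 8.95%, 10.3%, 6.24% and 5.93% of myeloid cells. Lymphoid cells gave 5.52% to 10.9% and stromal cells 4.07% to 6.91%, and the order of these classes and the myeloid class did not follow their CPM in every sample. In plasma cells, a type low in Ahr, the share was 1.33% to 5.13%. How much of a share at that level is background was not tested. Before thinning, the median share over samples was 59.5% in DC, 74.6% in mast and 30.7% in myeloid cells.

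Arnt, the partner that AhR needs to bind DNA and that also pairs with hypoxia-inducible factors, was spread far more evenly. It stood at 213, 199, 174 and 195 CPM in lymphoid, 136, 138, 131 and 148 CPM in DC, 143, 157, 156 and 133 CPM in myeloid and 80.7, 64.5, 161 and 86.5 CPM in stromal cells. Mast cells held 35.7, 61.5, 101.5 and 93.5 CPM, on 13, 48, 11 and 14 UMIs. The lymphoid class was highest of 5 in 4 of 4 samples, against 9.2% of all genes read, and also highest of the 4 classes without mast, against 18.8%. B cells were highest of the 17 types in 4 of 4 samples (4.27% of genes), at 242, 233, 291 and 287 CPM, with no overlap with the fibroblasts that came next at 138 to 230 CPM. Epithelial cells were lowest, at 39.6, 46.3, 52.0 and 42.6 CPM, with no overlap with plasma cells, the type above them. The stromal values ran in the reverse order of the share of epithelial cells in the class, which was 32.0%, 51.4%, 7.71% and 24.5%, and the part of that share was not tested. In lymphoid cells the samples differed by 1.22 times (1.16 to 1.28), and 83.3% of genes read there differed by at least as much. Across the 17 types the medians of Ahr and Arnt on the log2(CPM + 1) scale had a Pearson r of 0.30 and a Spearman rho of 0.34, a description over types that share libraries.

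Ahrr, the repressor that competes with AhR for ARNT and is itself induced through AhR, was present mainly in 2 of the 4 samples. All cells of samples 1 to 4 gave 547, 1097, 37 and 24 Ahrr UMIs, which is 4.81, 8.09, 0.364 and 0.331 CPM. In lymphoid cells it stood at 3.83 and 8.69 CPM in samples 1 and 2, on 111 and 399 UMIs, while sample 3 gave 0 UMIs and sample 4 gave 1 UMI among 13126170 and 13341506. In myeloid cells it stood at 4.52, 9.27, 0.291 and 0.657 CPM, on 151, 113, 10 and 15 UMIs. Samples 1 and 2 were higher than samples 3 and 4 in both classes, with no overlap of their counting intervals. In myeloid cells the highest sample was 31.8 times the lowest (16.7 to 68.1). Only 0.102% of the 11719 genes read there, 12 genes with Ahrr among them, reached that fold. Without sample 2 that fold was 15.5 and without sample 3 it was 14.1. In DC the UMIs were 36, 17, 3 and 1, and in the mast class 13, 14, 0 and 0. The exact interval of a count of 0 among so few cells reaches 34.0 CPM in sample 3 and 24.6 CPM in sample 4. For folds between samples, a count below 3 was set to a floor of 3 counts throughout.

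**Figure D3:**
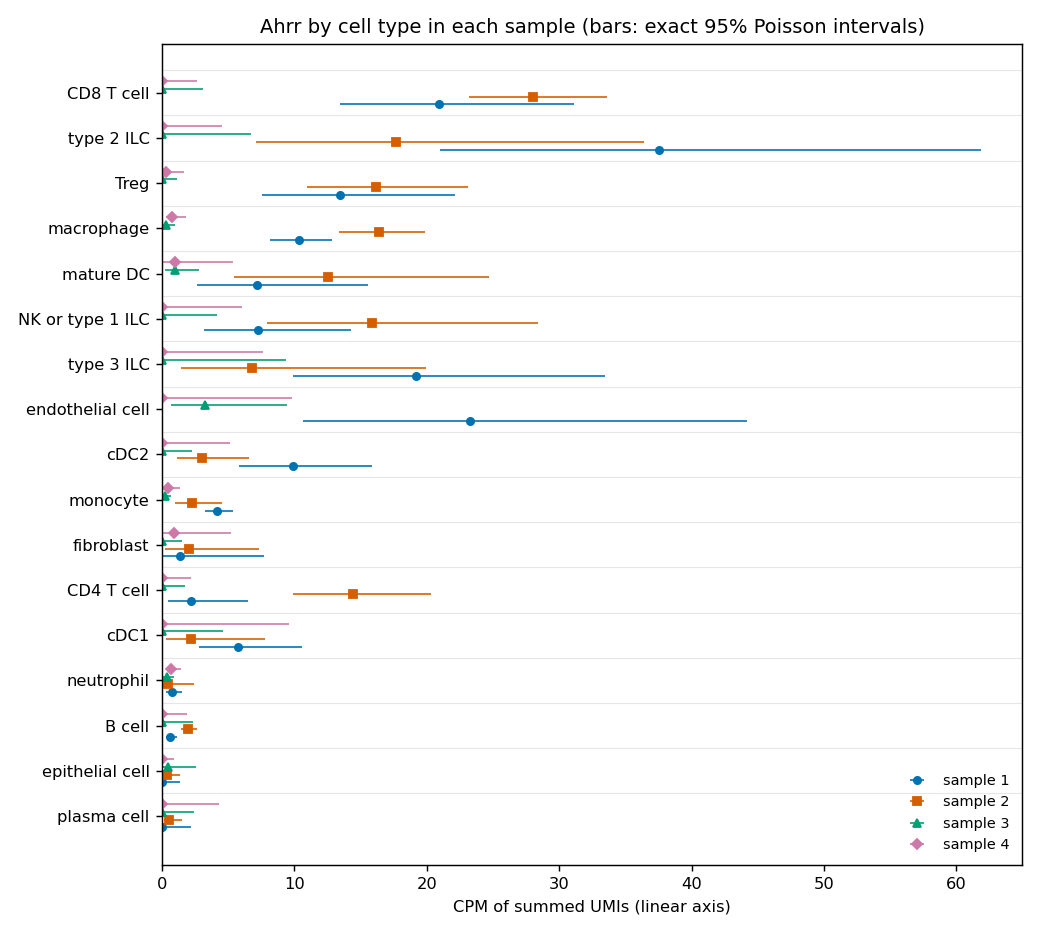
CPM of Ahrr (horizontal axis, linear, from 0) in the 17 ranked cell types, one point per sample with at least 20 cells of the type and its exact 95% Poisson interval. In samples 1 and 2 the level differs between types, with CD8 T cells, type 2 ILCs, Tregs and macrophages toward the top, while in samples 3 and 4 no type passes 3.22 CPM.

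Where Ahrr was found, it was not spread evenly over cell types. In samples 1 and 2 it stood at 20.9 and 28.0 CPM in CD8 T cells, 37.5 and 17.7 CPM in type 2 ILCs, 19.2 and 6.81 CPM in type 3 ILCs and 13.4 and 16.2 CPM in Tregs. Gamma-delta T cells, which were not ranked, gave 29.8 and 28.2 CPM. Macrophages gave 10.3 and 16.4 CPM, on 80 and 104 UMIs. B cells gave 0.629 and 1.96 CPM, plasma cells 0 and 0.509 CPM, and neutrophils 0.761 and 0.427 CPM, although B cells were the most numerous type in both samples. In samples 3 and 4, all of CD4 T cells, CD8 T cells, B cells, NK cells or type 1 ILCs, both other ILC types, cDC1 and cDC2 gave 0 UMIs, Tregs gave 0 and 1, and macrophages gave 3 and 5. In macrophages sample 2 was 49.98 times sample 3 (16.6 to 246), on 104 and 3 UMIs. Without sample 3 the fold between the highest and the lowest sample was 20.96, and without sample 2 it was 31.4. The order of samples 1 and 2 above samples 3 and 4 was also seen inside single types, such as CD8 T cells, Tregs and macrophages, and was not seen in neutrophils or epithelial cells. No type was highest for Ahrr in more than 1 sample.

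In the samples that held most of it, Ahrr was found in a minority of cells of each type. After thinning, 3.97% and 1.53% of CD8 T cells and 1.31% and 1.22% of macrophages of samples 1 and 2 held an Ahrr UMI. Before thinning, the shares in samples 1 and 2 were 1.85% and 5.11% of lymphoid cells, 3.22% and 3.84% of myeloid cells, 9.52% and 11.8% of CD8 T cells, 7.95% and 16.2% of Tregs, 20.7% and 16.5% of gamma-delta T cells and 7.58% and 7.92% of macrophages. In samples 3 and 4 they were 0% and 0.0654% of lymphoid cells and 0.281% and 0.4197% of macrophages.

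Tiparp, which ADP-ribosylates AhR and shortens its signal, and which other stimuli also induce, was found widely and at high level. It stood at 711, 565, 249 and 214 CPM in mast cells, 415, 494, 329 and 367 CPM in myeloid cells, 438, 298, 150 and 211 CPM in DC, 187, 190.1, 127 and 113 CPM in lymphoid cells and 183, 139, 204 and 155 CPM in stromal cells. The mast class was highest in samples 1 and 2 and the myeloid class in samples 3 and 4. Without the mast class, myeloid was highest in 3 of 4 samples and DC in sample 1, by 1.06 times (1.01 to 1.10). In myeloid cells the samples differed by 1.5 times (1.46 to 1.55), a fold that 53.3% of genes read there reached.

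**Figure D4:**
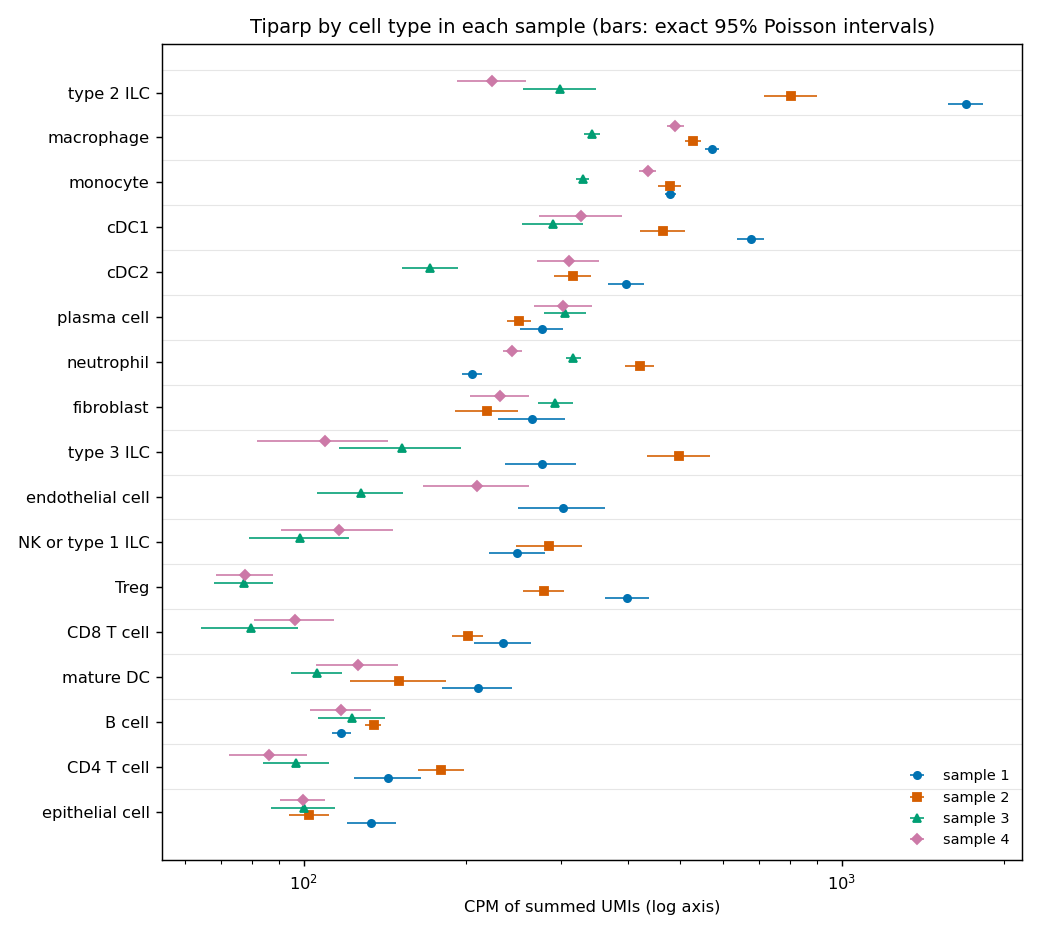
CPM of Tiparp (horizontal axis, log scale) in the 17 ranked cell types, one point per sample with at least 20 cells of the type and its exact 95% Poisson interval. The points of type 2 ILCs run from 224 to 1698 CPM over samples, while those of B cells, plasma cells, fibroblasts and epithelial cells lie close together.

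How far Tiparp differed between samples depended on the cell type. In type 2 ILCs it stood at 1698, 803, 299 and 224 CPM, with 67, 64, 96 and 138 cells, so the highest sample was 7.59 times the lowest (6.44 to 8.99). Without sample 1, which held 67 of these cells, that fold was 3.59. A fold of 7.59 or more was reached by 0.792% of the 11622 genes read in these cells. In Tregs it stood at 399, 279, 77.3 and 77.7 CPM, a fold of 5.15 (4.41 to 6.03) that 2.58% of 12131 genes reached. In type 3 ILCs it stood at 276, 497, 152 and 109 CPM, and in CD8 T cells at 235, 202, 79.6 and 96.2 CPM. In each of these types samples 1 and 2 were higher and samples 3 and 4 lower. In B cells, by contrast, it stood at 117, 135, 123 and 117 CPM, a fold of 1.15 (1.01 to 1.32) that 93.5% of 11892 genes reached. Plasma cells, at 277, 251, 306 and 303 CPM, and fibroblasts, at 266, 219, 293 and 231 CPM, showed no such order of the samples either. Macrophages lay between, at 573, 529, 343 and 490.3 CPM, a fold of 1.67 (1.59 to 1.75) that 43.9% of 11843 genes reached. Low genes vary more by counting alone, so these shares of genes describe a setting and test nothing.

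For Tiparp, type 2 ILCs were the highest type in samples 1 and 2, where they were 6.82 (5.92 to 7.88) and 2.81 (2.35 to 3.37) times NK cells or type 1 ILCs, and macrophages were the highest type in samples 3 and 4. Within DC, cDC1 held 676, 464, 290.3 and 328 CPM and mature DCs 211, 150.2, 106 and 126 CPM, so cDC1 was 2.60 to 3.21 times mature DCs in all 4 samples, the same order as for Ahr. Across the 17 types the medians of Ahr and Tiparp had a Pearson r of 0.44 and a Spearman rho of 0.49, as a description. In neutrophils Tiparp stood at 205, 421, 317 and 244 CPM.

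The classical AhR target Cyp1a1, an enzyme of xenobiotic and ligand breakdown, was close to undetected. All 45229 cells together gave 8 UMIs, 5 in sample 1, 3 in sample 2 and 0 in samples 3 and 4. Of the 6 in gated cells, 3 came from 1 endothelial cell of sample 1, 1 from a CD4 T cell of sample 1 and 2 from B cells of sample 2. The exact interval of a count of 0 reaches 0.110 CPM in the myeloid cells of sample 1, the class with most UMIs there. In the DC of that sample it reaches 0.753 CPM. Its level in leukocytes was thus not measurable at this depth.

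Cyp1b1, a related enzyme that is known from stroma and macrophages, gave 84 UMIs in all cells and 53 in gated cells. Stromal cells held 9, 0, 14 and 13 of these in samples 1 to 4, which is 2.24, 0, 2.27 and 2.12 CPM. In sample 1 all 9 came from 4 endothelial cells, in sample 3 all 14 from 2 fibroblasts and in sample 4 all 13 from 8 fibroblasts. The stromal class was highest in 3 of 4 samples. Sample 2 held none in 253 stromal cells. With its count set to the floor of 3, the highest sample was 5.05 times sample 2, a fold that 7.8% of 14046 genes reached there. Without sample 2 the stromal fold was 1.07. In myeloid cells there were 6, 2, 3 and 1 UMIs, mostly in monocytes, which is 0.180, 0.164, 0.0874 and 0.0438 CPM.

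Nqo1, which both AhR and NRF2 can induce, was low in lymphoid cells and DC. Among the types ranked, its median level was highest in endothelial cells, epithelial cells and neutrophils, in that order. Nqo1 stood at 16.2, 22.4, 8.91 and 10.9 CPM in stromal cells and at 11.5, 4.51, 5.39 and 8.01 CPM in myeloid cells. Lymphoid cells held 1.14 to 1.76 CPM and DC 0.830 to 4.70 CPM. With the mast class left out, stromal cells were highest in 4 of 4 samples, as they were for 27.5% of all genes read. The mast class gave 35.7, 32.0, 0 and 6.68 CPM on 13, 25, 0 and 1 UMIs, and the 13 UMIs of sample 1 came from 3 cells. Stromal values differed by 2.52 times (1.84 to 3.50) between samples, a fold that 30.4% of genes reached there. It was 3.68 with cells under 10% mitochondrial UMIs, 3.83 with cells thinned and 5.29 as a mean over cells.

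By type, epithelial cells held Nqo1 at 17.6, 26.0, 15.2 and 12.9 CPM, on 33 to 139 UMIs. Endothelial cells, read in 3 samples, held 38.8, 10.7 and 23.9 CPM in samples 1, 3 and 4, on 9 to 15 UMIs. Neutrophils held 16.6, 9.38, 11.8 and 16.1 CPM, on 22 to 175 UMIs, and monocytes 11.1, 7.14, 2.09 and 2.01 CPM. Neutrophils were above monocytes in 4 of 4 samples, and their ranges overlapped. Macrophages gave 1.26 to 5.28 CPM and B cells 0.501 to 1.31 CPM.

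By the rule that the most like genes are those with the largest Pearson correlation of median log2(CPM + 1) over the 17 types, out of 10343 genes with at least 20 CPM in some type, the pattern of Ahr was most like 1700016P03Rik (r = 0.86), Gm48236 (r = 0.85) and Tmem229b (r = 0.85). The first overlaps Mir212 and Mir132 on its own strand. The second is the antisense neighbour that overlaps Ahr. Arnt was most like Slf2 (r = 0.91), Nsmce2 (r = 0.85) and Impact (r = 0.85). Tiparp was most like Slc7a8 (r = 0.83), Dusp1 (r = 0.78), an immediate early phosphatase gene, and Gnaq (r = 0.77). Nqo1 was most like Cldn15 (r = 0.87), Lrg1 (r = 0.85) and Tbc1d2 (r = 0.85). These are descriptions over types that share libraries.

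Other genes of the pathway were read by role, as medians and ranges over the 4 samples, and 45 of 46 listed symbols were found (Bmal1 was not, under that name). They are compared over the 4 classes other than mast, in which the class highest in all samples was lymphoid for 18.8% of all genes read, DC for 5.77%, myeloid for 8.4% and stromal for 27.5%. Among the chaperone genes, Hsp90ab1, which encodes the chaperone itself, had its highest median in stromal cells (1408 CPM), as did Hsp90aa1 (663 CPM), and Ptges3 had its highest in DC (223 CPM).

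Among 6 measured partners or relatives of AhR, Arnt2 was highest in lymphoid cells in all 4 samples (median 9.31 CPM) and in type 3 ILCs within them (42.2 CPM). Hif1a, which encodes an oxygen-regulated transcription factor that also pairs with ARNT, was highest in myeloid cells as a class, at 678 to 1039 CPM. By type, the median of Hif1a was 1139 CPM in monocytes, 967 CPM in neutrophils and 696 CPM in macrophages. Type 3 ILCs, CD4 T cells and type 2 ILCs had medians of 963, 947 and 890 CPM. Epas1 and Npas2 were highest in stromal cells as a class, with medians of 165 and 25.6 CPM. By type, however, Epas1 was highest in type 2 ILCs in 3 of 4 samples, with a median of 714 CPM there. Sim2 gave 11 UMIs and was not read.

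**Figure D5:**
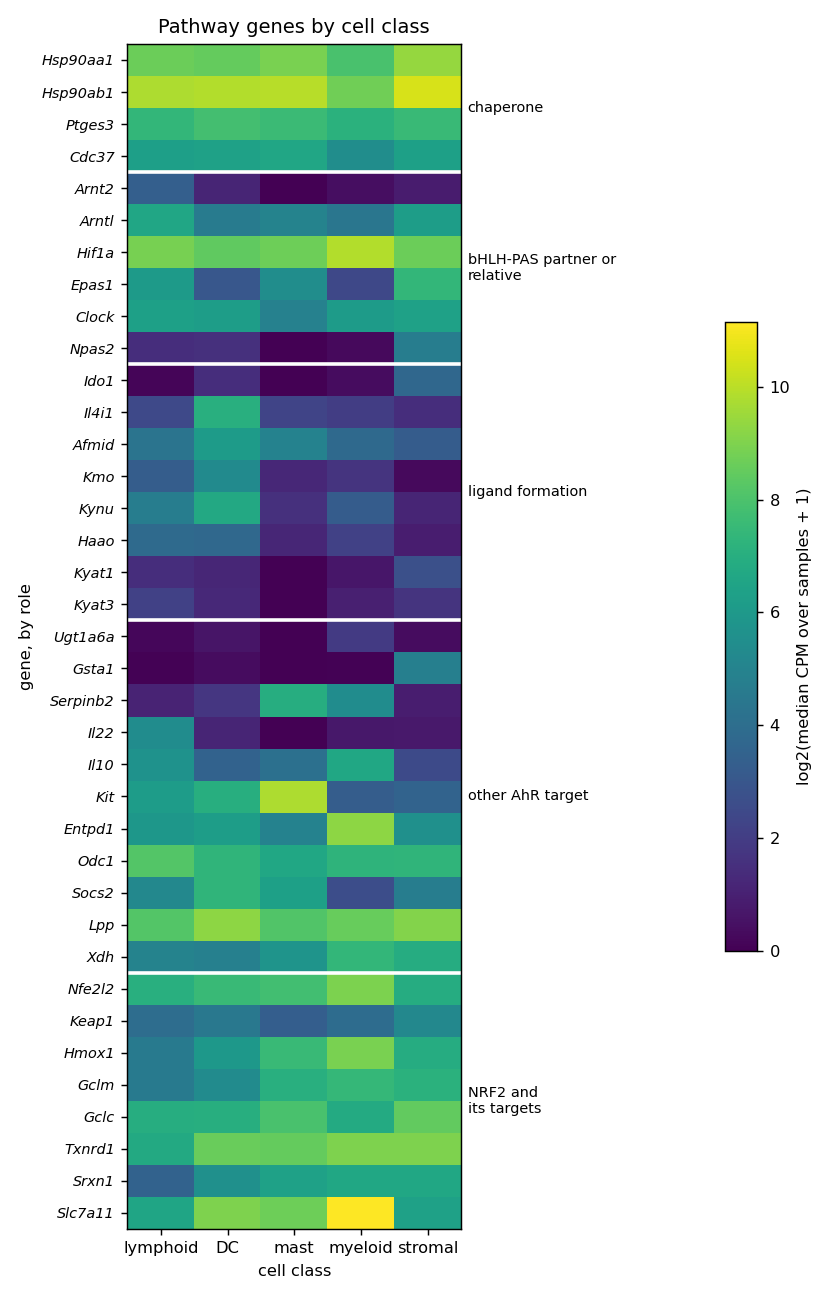
Median over 4 samples of the level of pathway genes, as log2(CPM + 1) in colour, in the 5 cell classes, ordered by role. Il4i1, Kynu, Kmo and Afmid are highest in the DC column, and Slc7a11, Hif1a and Entpd1 in the myeloid column.

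Genes for enzymes of tryptophan breakdown, a route on which AhR ligands are formed, were most often highest in DC. Of 8 genes read of 11 listed, 4 were highest in DC in all 4 samples, 2 in stromal cells and none in lymphoid or myeloid cells. Il4i1, whose product makes indole-3-pyruvate and kynurenic acid, stood at 83.9 to 214 CPM in DC, and in mature DCs it reached a median of 354 CPM. Kynu, kynureninase, stood at 90.5 to 128 CPM, Kmo, kynurenine 3-monooxygenase, at 26.3 to 59.6 CPM and Afmid, kynurenine formamidase, at 49.9 to 77.2 CPM in DC. The DC subsets differed. In cDC1 the median of Il4i1 was 3.05 CPM, and Kmo had medians of 53.9 CPM in cDC1 and 6.02 CPM in mature DCs. B cells held Kynu at 61.4 to 89.2 CPM. By type, Haao was highest in B cells and Kyat3 in NK cells or type 1 ILCs, each in 4 of 4 samples, with medians of 35.4 and 44.6 CPM. Ido1, the first enzyme of the route, was instead highest in stromal cells, where epithelial cells held a median of 26.3 CPM and DC as a class held 1.76 CPM. Kyat1 was the other gene highest in stromal cells, at a median of 5.60 CPM. The medians of Tdo2, Ido2 and Aadat did not reach 1 CPM in any class.

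Of 11 genes read among 14 further AhR targets, 4 were highest in myeloid cells in all 4 samples, 2 in lymphoid cells, 2 in DC and 1 in stromal cells. Il22, the cytokine of type 3 ILCs, stood there at 202 to 5352 CPM, against a median of 42.0 CPM over the lymphoid class. Odc1, the rate-limiting enzyme of polyamine synthesis, was highest in lymphoid cells (median 288 CPM). Its median was 830 CPM in type 3 ILCs (144 to 1392 over samples) and 655 CPM in Tregs (235 to 1360). Type 3 ILCs were the highest type for Odc1 in 2 of 4 samples. In macrophages it ranged from 66.1 to 424 CPM over samples. Socs2 and Kit were highest in DC of these 4 classes, with medians of 155 and 125 CPM. Among the types ranked, however, Kit was highest in type 2 ILCs in 3 of 4 samples, at 495 to 575 CPM. NK cells or type 1 ILCs held Kit at a median of 355 CPM. In the mast class Kit, the stem cell factor receptor on which mast cells depend, stood at 809 to 1343 CPM. Entpd1 (CD39) had a median of 619 CPM and Il10 one of 99.81 CPM in myeloid cells, and Il10 was highest by type in Tregs in 3 of 4 samples. Serpinb2 and Ugt1a6a were the others highest in myeloid cells, and Gsta1 was the gene highest in stromal cells. Cyp1a2, with 2 UMIs, Aldh3a1, with 10, and Gpr15, with 54, were not read.

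Nqo1 is shared with the NRF2 arm of the stress response. Of 8 genes of that arm read, 3 were highest in myeloid cells in all 4 samples and 2 in stromal cells. Nfe2l2, which encodes NRF2, had a median of 492 CPM in myeloid cells and of 643 CPM in neutrophils. Slc7a11, the cystine transporter, stood at 1563 to 3165 CPM in myeloid cells and Hmox1, haem oxygenase, at 238 to 964 CPM. Gclc and Keap1 were highest in stromal cells, with medians of 357 and 35.7 CPM.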

How the data were processed

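Colonic CD45+ cells were captured with a 10x droplet system and sequenced by the authors, who deposited 1 matrix of UMI counts per sample, with gene and barcode lists. The deposited counts are whole numbers, not normalized. The matrix headers name Cell Ranger 7.0.1, and the submitters' processing notes name Cell Ranger 5.0.0, STAR, Seurat and the mm10 build. Whether intronic reads were counted, and any cell filter applied in Seurat, is not given in the sources used here.

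Cells with at least 200 genes and under 20% mitochondrial UMIs were kept (43432 of 45229). Doublet scores came from Scrublet in scanpy 1.11.5 (Python 3.11.15), and the highest-scoring 0.8% per 1000 cells of a sample were removed, 3882 in all. Each cell was scored on 20 marker lists (mean of log-scaled marker levels, each marker divided by its 90th percentile among positive cells and each score by its own high percentile). A cell was gated if its best score reached 0.35 and no other lineage reached 0.6 of it. Of the kept cells, 7504 carried markers of 2 lineages and 2473 scored too low. T cells were split by Foxp3, Cd4, Cd8a or Cd8b1, Trdc and type 17 genes. The members and all lists were chosen with earlier results of these data known, the members' values had been seen under a first setting of the gate, and the scaling and limits of the gate were set after seeing how many cells of each cluster it kept. Cell types are rebuilt names and may differ from those of the study.

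Counts were summed per class and sample and given per 1000000 UMIs (CPM). Poisson intervals for levels, binomial intervals for shares and conditional binomial intervals for ratios were exact, at 95%, with numpy 2.4.6 and scipy 1.17.1. Intervals cover counting error only. The ranking was run on simulated Poisson counts with known class differences. These counts held no variation between cells of a class and no gating error, so that run left both untested. No sample has a group in the labels, so no test between samples and no p-value was computed. The named genes were the 7 members in every class and type, the 3 genes most like each member with at least 20 CPM in some type, and pathway genes that were highest of their role in a class or at 0. Other genes named for a class or type were chosen after their values were seen. Positions are from GENCODE M21 and promoters from RefSeq, both on GRCm38. Alternatives were other cell filters, Leiden clusters in place of the gate, a stricter gate, thinning, a mean over cells and leaving out each sample. Leaving out the mast class, and leaving out each sample for folds within a cell type, were added after seeing the data. The result of 1 listed pathway gene is not reported here.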

Additional observations from a re-analysis of the deposited data

How the results depend on the processing

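No paired analysis was possible because no sample has a group to pair, and ratios between classes and types were taken within samples as values with no test. Leaving out each sample for folds within a cell type was added after seeing the data. The mast class stayed highest for Ahr in 4 of 4 samples under every alternative that kept all samples. cDC1 stayed the highest type for Ahr in 4, except in 3 with cells thinned to 1000 UMIs. For Arnt the lymphoid class was highest in 3 when thinned or as a mean over cells, and B cells were highest in 3 when thinned. Leiden clusters held no cDC1 cluster and gave no value for it. The cause of any change was not tested.

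The ranges over samples moved most. With Leiden clusters the range was 1.46 for Ahr in DC and 1.28 for Tiparp in myeloid cells. A stricter gate gave 1.95 for Ahr. Thinning gave 2.34 for Ahr in DC, 11.8 for Ahrr in myeloid cells, 1.37 for Tiparp, 3.25 for Cyp1b1 in stromal cells and 3.83 for Nqo1 in stromal cells. The mean over cells gave 1.84 for Ahr, 1.14 for Arnt in lymphoid cells, 1.45 for Tiparp and 5.29 for Nqo1. Under 10% mitochondrial UMIs Nqo1 gave 3.68. With one sample left out at a time, the ranges ran from 1.19 to 1.69 for Ahr, 1.09 to 1.22 for Arnt, 14.1 to 31.8 for Ahrr, 1.26 to 1.5 for Tiparp, 1.07 to 5.05 for Cyp1b1 and 1.82 to 2.52 for Nqo1.

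Thinning left the mast class highest for Tiparp in 1 sample and for Nqo1 in 0, fibroblasts highest for Cyp1b1 in 1 and endothelial cells highest for Nqo1 in 1. The mean over cells gave 0 and 1 for both Nqo1 results. With one sample left out, mast was highest for Ahrr, Tiparp and Nqo1 in 1 to 2 samples. So were macrophages for Tiparp, fibroblasts for Cyp1b1 and endothelial cells for Nqo1, in 1 to 2 each. Stromal cells were highest for Cyp1b1 in 2 to 3, and for Ahr and Arnt each leading class and type in 3.

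Thinning lowered the median share of cells with a UMI in lymphoid, DC, mast, myeloid and stromal cells to 9.12%, 21.3%, 47.8%, 7.5955% and 6.29% for Ahr, to 18.6%, 14.8%, 4.82%, 12.6% and 11.2505% for Arnt, to 11.5%, 18.3%, 22.6%, 28.8% and 20.4% for Tiparp and to 0.169%, 0.314%, 0%, 0.667% and 1.01% for Nqo1. It gave 0% for Ahrr in stromal and 0.00948% for Cyp1b1 in myeloid cells. Of 35 median levels, 6 moved by more than the spread of samples when thinned, 6 as a mean over cells, 2 with Leiden clusters, 2 with the stricter gate and 0 under the other settings. Counting limits the low genes: Cyp1a1, Cyp1b1 and, outside samples 1 and 2, Ahrr rest on a few UMIs per class.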

Other observations

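The samples, which no label assigns to a group, fell apart for some members and not for others. Over all cells, Ahrr stood at 4.81, 8.09, 0.364 and 0.331 CPM in samples 1 to 4. Samples 1 and 2 formed a high pair and samples 3 and 4 a low pair. Ahr itself, at 116, 127, 104 and 110 CPM, and Arnt, at 171, 177, 157 and 152 CPM, showed no such gap. Cyp1a1 gave 5, 3, 0 and 0 UMIs. Tiparp over all cells, at 324, 244, 247 and 246 CPM, showed no such pairing. Within the lymphoid, DC, mast and myeloid classes, though, samples 1 and 2 each stood above samples 3 and 4 (myeloid 415, 494, 329 and 367 CPM). Stromal cells, at 183, 139, 204 and 155 CPM, did not show that order, nor did B cells, plasma cells or neutrophils. Tiparp values in type 2 ILCs (1698, 803, 299 and 224 CPM) and in Tregs (399, 279, 77.3 and 77.7 CPM) were spread widely. No genotype is read from these values.

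Cyp1b1 was concentrated in few cells, with 14 UMIs in 2 of 278 fibroblasts of sample 3 and 13 UMIs in 8 of 130 fibroblasts of sample 4, while 55 and 82 fibroblasts of samples 1 and 2 gave 0. Mcpt1, the most abundant mast cell transcript named here, was found at 0.762 to 22.0 CPM in lymphoid cells and at 0.787 to 28.0 CPM in myeloid cells, against 5075 CPM or more in the mast class.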
